A study of Mus musculus with 4 samples.

Results

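The genes described here are 10 transcriptional targets and feedback regulators of canonical Wnt signalling: Axin2, Lef1, Tcf7, Apcdd1, Nkd1, Nkd2, Notum, Sp5, Znrf3 and Tnfrsf19. They were chosen by name, as genes that Wnt signalling is known to induce in many tissues, with earlier results of these data known. All 10 are among the 32285 genes in the deposited single-cell count matrices. The study profiled subdural meninges of the mouse cerebellum, dura and choroid plexus left aside, in NdpWT;SmoA1+/- and NdpKO;SmoA1+/- mice on a C57BL/6 background. Ndp encodes Norrin, a secreted ligand, and NdpKO denotes its knockout. All mice, the NdpWT controls included, carry 1 Neurod2-SmoA1 allele, an activated Smoothened under a promoter of granule neurons that makes them prone to medulloblastoma. The sample fields give an age of P6 to P8 and the collection protocol P7 to P9. There are 2 libraries of each genotype, each made from 5 pooled cerebella, so every p-value below rests on 2 libraries against 2 and single animals cannot be separated. The cells were freed with Dispase II, cleared on 22% Percoll and run through droplet capture with 3' tags counted as unique molecular identifiers (UMIs). The question put to the 10 genes was which cells other than endothelium, in particular mural cells and fibroblasts, have less of them when Norrin is missing.

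In the canonical pathway a Wnt ligand, or Norrin, joins a Frizzled receptor to Lrp5 or Lrp6, the destruction complex that degrades beta-catenin is disabled, and beta-catenin enters the nucleus to act with DNA-binding partners of the LEF/TCF family. Norrin acts through Fzd4 with the co-receptor Tspan12 and is known for its part in the vessels of retina and cerebellum, where endothelial beta-catenin signalling is needed for the blood-brain barrier. Many genes that the pathway turns on act back on it, which makes them usual readouts of the signal. Axin2 is a scaffold of the destruction complex, Nkd1 and Nkd2 bind Dishevelled, Notum strips the lipid from Wnt ligands, Znrf3 is a ubiquitin ligase that clears Frizzled receptors from the cell surface, and Apcdd1 is a membrane glycoprotein that inhibits Wnt signalling. Lef1 and Tcf7 are themselves the nuclear partners of beta-catenin, Sp5 is a transcription factor, and Tnfrsf19 (Troy) is a receptor of the tumour necrosis factor receptor family.

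On GRCm38, Axin2 (ENSMUSG00000000142) lies at chr11:108920349-108950783 on the plus strand, Tcf7 (ENSMUSG00000000782) at chr11:52252371-52283014 on the minus strand, Notum (ENSMUSG00000042988) at chr11:120653788-120661175 on the minus strand and Znrf3 (ENSMUSG00000041961) at chr11:5276324-5444847 on the minus strand. Lef1 (ENSMUSG00000027985) lies at chr3:131110471-131224356 and Sp5 (ENSMUSG00000075304) at chr2:70474923-70477729, both on the plus strand. Nkd1 (ENSMUSG00000031661) lies at chr8:88521354-88594884 on the plus strand, Nkd2 (ENSMUSG00000021567) at chr13:73818534-73847631 on the minus strand, and Tnfrsf19 (ENSMUSG00000060548) at chr14:60963875-61046490 on the minus strand. Apcdd1 carries the identifier ENSMUSG00000071847. The UMIs are reads of the 3' end of each transcript, so levels are compared between cells for a gene and not between genes.

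LEF/TCF proteins bind DNA at sites built around the letters CTTTGA. These letters, or TCAAAG on the other strand, were searched in the 250 bases before the annotated starts (RefSeq, GRCm38.p6), with a site on either strand counted and no overlap between the 2 spellings possible. A window was found for 7 of the 10 genes, 12 windows in all. Apcdd1, Notum and Znrf3 had no entry. The letters occur in 3 of the 12 windows, and in 13.83% of all 32851 windows of this length. The window of Sp5 (chr2:70474673-70474922, plus strand) is shown because it holds the letters at 2 places, as 1.367% of all windows do, and those of Axin2 (chr11:108920099-108920348) and Nkd1 (chr8:88527383-88527632), both plus strand, because the results below turn on these genes. Capitals mark the letters searched.
Sp5: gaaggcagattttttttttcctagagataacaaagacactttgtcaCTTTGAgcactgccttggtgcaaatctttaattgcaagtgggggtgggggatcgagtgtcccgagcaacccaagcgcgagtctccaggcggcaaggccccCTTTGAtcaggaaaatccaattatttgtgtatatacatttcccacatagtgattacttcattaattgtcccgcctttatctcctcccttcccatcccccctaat
Axin2: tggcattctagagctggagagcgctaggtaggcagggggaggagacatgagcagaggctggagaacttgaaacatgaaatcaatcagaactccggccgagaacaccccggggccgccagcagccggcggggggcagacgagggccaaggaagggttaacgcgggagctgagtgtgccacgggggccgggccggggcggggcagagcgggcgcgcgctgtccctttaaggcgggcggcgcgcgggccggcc
Nkd1: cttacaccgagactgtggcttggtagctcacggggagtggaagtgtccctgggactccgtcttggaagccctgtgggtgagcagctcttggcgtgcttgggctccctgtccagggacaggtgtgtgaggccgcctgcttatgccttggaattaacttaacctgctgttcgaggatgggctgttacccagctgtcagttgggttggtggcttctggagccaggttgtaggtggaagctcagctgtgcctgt
The other windows with a match are 1 of Lef1 (chr3:131156044-131156293), with 2, and 1 of Tnfrsf19 (chr14:61037988-61038237), with 1. These windows of Lef1 and Tnfrsf19, and that of Nkd1 shown above, lie inside the gene spans given earlier. They come before an annotated start within the gene and not before the gene itself. Axin2 and Nkd1 have 0 matches here, which says only that these 6 letters are not in these windows. A match is a description of the sequence and not a measured binding site.

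The 4 libraries hold between 114363848 and 125981161 UMIs in 12904 to 19134 barcodes, of which 5599 to 12561 cells were kept. NdpKO replicate 1 stands apart: 44.1% of its barcodes passed the filters against 64.8% to 67.0% in the other libraries, 21.8% had over 10% mitochondrial UMIs against 7.58% to 10.4%, and its median cell had 14296 UMIs against 7220 to 9464. Pairs of libraries shared 48 to 98 barcodes. Norrin transcript (Ndp) was read at 2.07 and 1.36 CPM (UMIs scaled to the summed UMIs of the cells in question) over all cells of the NdpWT libraries and at 0.411 and 0.471 CPM in NdpKO, so the genotypes did not overlap. Which part of Ndp the allele lacks is not stated in the labels, and 3' tags may lie outside it. The cells fell into 16 classes, of which 11 had at least 50 cells in every library and were tested, and 8 unnamed clusters of 57 to 2202 cells that are in none of the classes and were not tested. In 2 of the 8 (318 and 213 cells) the leading genes include Col15a1 or Lum, which also lead a fibroblast cluster. The endothelial class (267 and 1051 cells in the NdpWT libraries, 300 and 506 in NdpKO, replicate 1 before replicate 2, the order used throughout) had 9448 to 11060 CPM of its 13 marker genes, mural cells (100, 320, 103 and 221 cells) had 296 to 444 and fibroblasts (1056, 1965, 1134 and 1782 cells) 221 to 321. Mural markers made up 24840 to 29090 CPM of mural cells and far less of endothelial cells, so both classes carry the markers of their names. Mural cells also had 3050 and 2649 CPM of the 13 fibroblast markers in NdpWT and 2218 and 2422 in NdpKO. Fibroblasts had 2079 to 2857 CPM of the mural markers. The part of such carry-over in the mural and fibroblast values below was not tested.

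In NdpWT libraries the 10 genes divided by the cells in which they were highest. Apcdd1 and Lef1 were highest in endothelial cells. Mean Apcdd1 was 450.9 CPM ± 19.2 (SD, n = 2 libraries) there, 94.4 ± 12.6 in fibroblasts and 47.8 ± 15.02 in mural cells. Mean Lef1 was 200 CPM ± 2.96 in endothelial cells, next to 188 ± 65.5 in a lymphoid cluster of 43 to 110 cells, so these 2 neighbours did not differ beyond their spread, and it was 27.9 ± 4.41 in fibroblasts and 12.2 ± 7.39 in mural cells. Tcf7, which is abundant in T cells, was at 226 CPM ± 10.8 in that lymphoid cluster, 66.4 ± 0.146 in endothelial cells, 26.2 ± 6.93 in mural cells and 18.7 ± 1.31 in fibroblasts.

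Axin2 had the opposite order. It was highest in fibroblasts at 99.2 CPM ± 19.4, followed by mural cells at 73.1 ± 21.5, and reached 32.4 ± 8.01 in endothelial cells, where Apcdd1 and Lef1 peaked. Fibroblasts and mural cells did not differ in Axin2 beyond the spread of their libraries, whereas the mural and endothelial ranges did not overlap. Tnfrsf19 was at 100.6 CPM ± 0.752 in fibroblasts, 84.9 ± 20.03 in endothelial cells and 74.8 ± 3.42 in mural cells, and the spread of its endothelial libraries reached from the mural level nearly to that of fibroblasts. Nkd1 was highest outside them, at 316 CPM ± 39.3 in a neuronal cluster led by Pcp4, Sez6 and Kcna1 and 128 ± 35.6 in the granule lineage. Its levels in mural (87.7 ± 13.3) and endothelial (85.3 ± 5.87) cells overlapped, and both NdpWT values of fibroblasts (66.8 ± 9.81) lay below them. Sp5 was at 169 CPM ± 14.4 in the other neurons, 44.4 ± 7.88 in fibroblasts and 34.4 ± 2.85 in endothelial cells. Nkd2, Notum and Znrf3 were low: Nkd2 was at 22.3 CPM in mural cells, 19.7 in fibroblasts and 11.1 in endothelial cells, and Znrf3 at 17.6 in endothelial cells. Notum reached 8.24 CPM ± 8.53 in endothelial cells and 1.70 in fibroblasts.

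**Figure D1:**
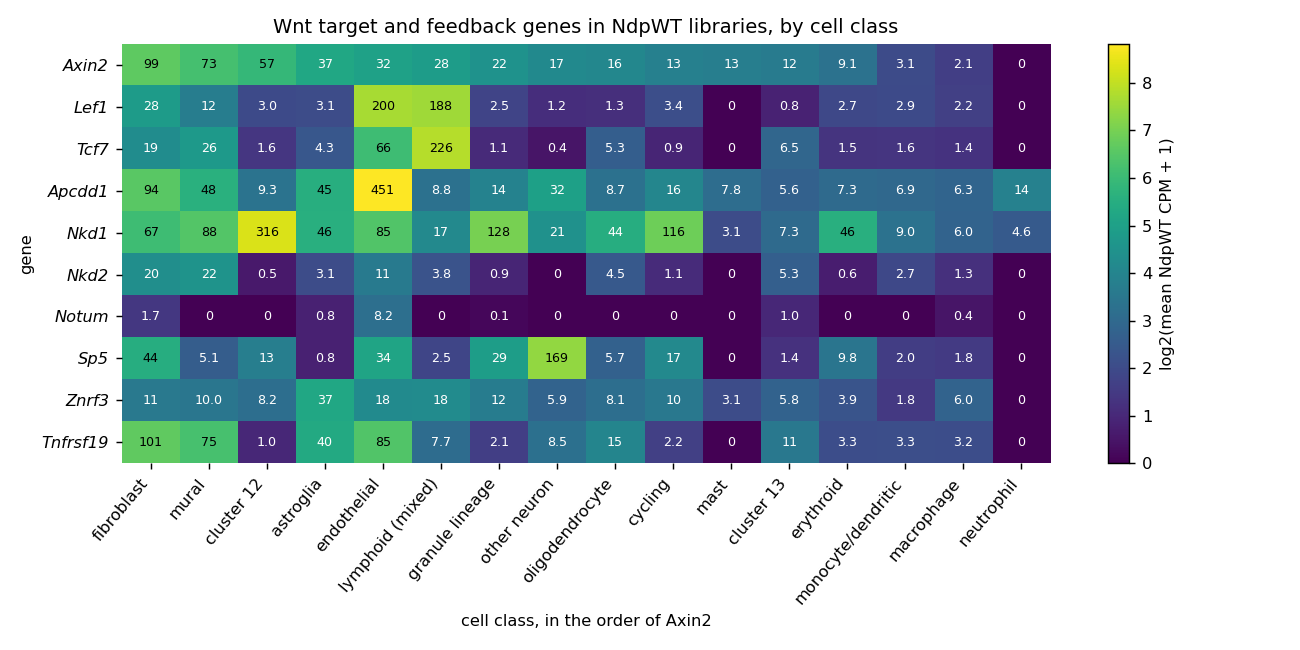
Mean NdpWT level of the 10 genes (rows) in each class (columns, in the order of Axin2), as UMIs scaled to the class sum. The number in each cell is the mean CPM over the 2 NdpWT libraries and the colour is log2(mean CPM + 1). Apcdd1 and Lef1 peak in endothelial cells, Axin2 in fibroblasts and mural cells.

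The heat map of wild-type levels shows the same division, with no class in which all 10 genes are high. Across the 11 tested classes, the genes whose NdpWT pattern of log2(CPM + 1) was most like that of Axin2 were Armcx2 (Pearson r = 0.941), Acyp2 (0.9225), Eml1 (0.910), Mest (0.908) and Armcx6 (0.9005), among 10740 genes with at least 20 CPM in a class. For Apcdd1 they were Prex2 (0.973), Mamld1 (0.920), Slc38a3 (0.918), Sox13 (0.917) and Efcc1 (0.916). None of the other 9 genes came as close to Axin2: Nkd1 reached 0.749, Znrf3 0.716 and Apcdd1 0.632. These are descriptions over 11 classes that share their libraries.

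In endothelial cells 5 of the 10 genes fell and 0 rose in edgeR's quasi-likelihood test on the summed UMIs of each library, at a Benjamini-Hochberg adjusted p under 0.05 over all genes tested in the class. Over all 12528 genes tested, 2.55% were called, 1.44% lower and 1.1% higher. Apcdd1 had 464 and 437 CPM in the NdpWT libraries and 157 and 134 in NdpKO, a change of -1.65 ± 0.14 on the log2 scale (SE, adjusted p = 1.33e-04), to 0.322 of its wild-type mean. Nkd1 had 89.5 and 81.2 CPM against 26.3 and 30.0 (-1.61 ± 0.15, adjusted p = 2.69e-04). For both inhibitors both NdpKO libraries lay far below both NdpWT libraries.

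The transcription factors fell less. Sp5 had 32.4 and 36.4 CPM in NdpWT and 11.8 and 16.6 in NdpKO (-1.30 ± 0.20, adjusted p = 0.00562). Tcf7 had 66.3 and 66.5 CPM against 33.1 and 40.7 (-0.87 ± 0.16, adjusted p = 0.0128). Lef1 had 202 and 198 CPM against 103 and 134 (-0.77 ± 0.15, adjusted p = 0.0179). In each of these 3 genes both NdpKO libraries lay below both NdpWT libraries. The calls of Tcf7 and Lef1 each hang on 1 library: without NdpWT replicate 2 the adjusted p of Tcf7 was 0.0569 (-0.88), and without NdpKO replicate 1 that of Lef1 was 0.0569 (-0.60).

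Axin2, the most used readout of the pathway, was not among the endothelial calls. It had 38.1 and 26.8 CPM in NdpWT and 17.7 and 17.5 in NdpKO (120, 230, 105 and 94 UMIs), with no overlap, and a change of -0.86 ± 0.21 (95% interval -1.32 to -0.40, adjusted p = 0.0593). It passed in 5 of 11 alternative analyses, with adjusted p from 2.03e-04 to 0.293, among them those without NdpWT replicate 2 (-1.14, adjusted p = 0.0237) and without NdpKO replicate 1 (-0.88, adjusted p = 0.0461). Tnfrsf19 also did not overlap between genotypes (70.8 and 99.1 against 54.5 and 59.7 CPM, -0.61 ± 0.17, adjusted p = 0.0961), and it passed without NdpWT replicate 1 (-0.80, adjusted p = 0.0239). Nkd2 (-0.52 ± 0.28) and Znrf3 (-0.32 ± 0.25) were far from the threshold. Notum had 14.3 and 2.21 CPM against 2.70 and 0.560, from 45, 19, 16 and 3 UMIs, so NdpWT replicate 2 lay among the NdpKO libraries (-2.11 ± 1.26, adjusted p = 0.633), and the change was -0.41 without NdpWT replicate 1 and -3.11 (adjusted p = 0.0362) without NdpWT replicate 2. In all, 8 of the 10 genes had both NdpKO libraries below both NdpWT libraries, against 19.1% of genes with at least 10 UMIs, and the median change was -0.86 against 0.0033 over all genes tested.

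**Figure D2:**
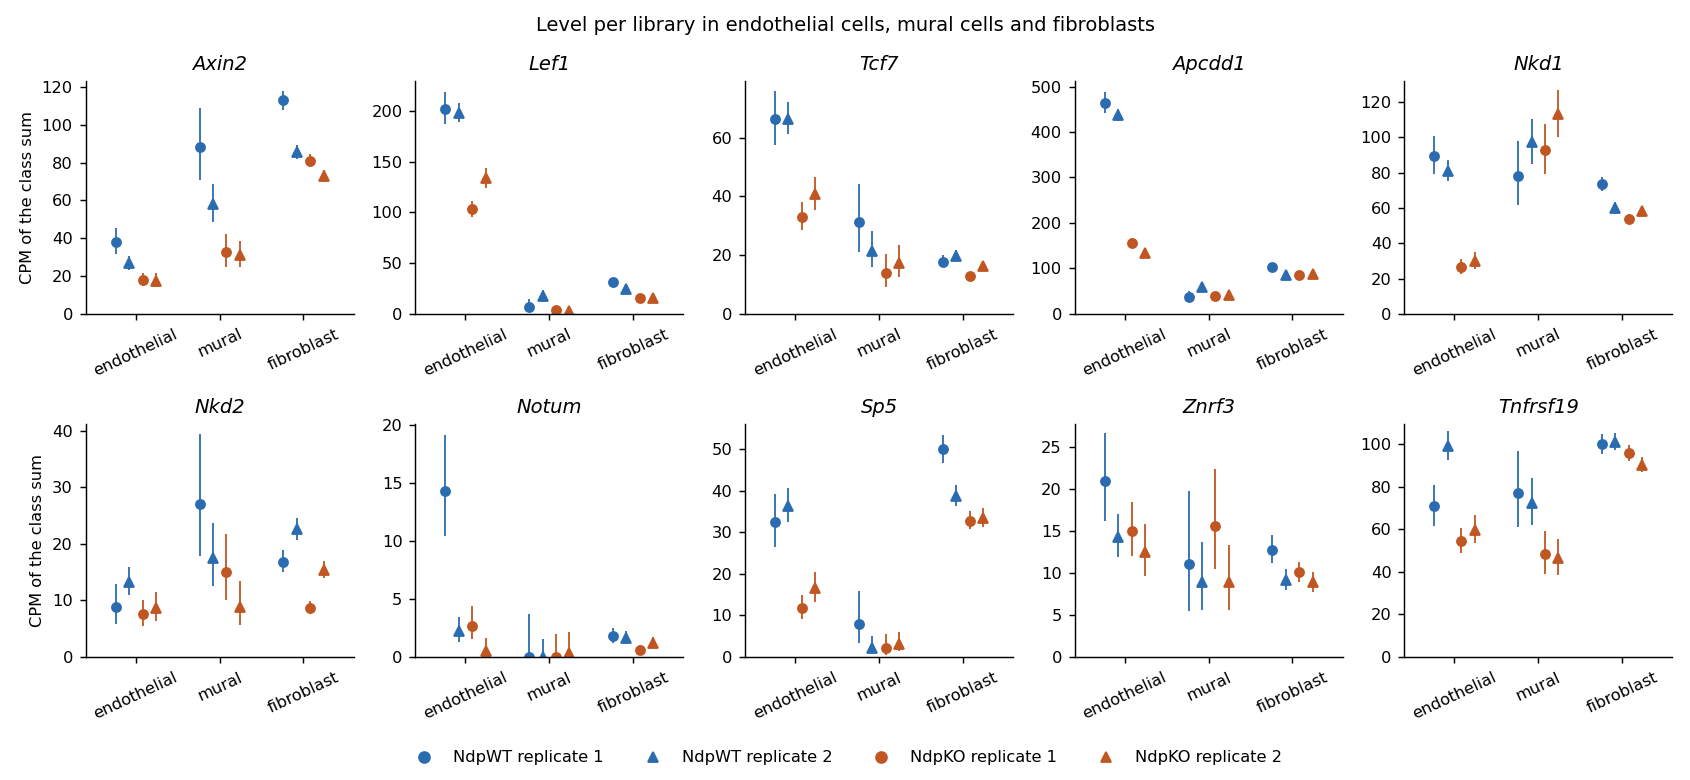
Level of each of the 10 genes in endothelial cells, mural cells and fibroblasts of each library, in CPM. Points are single libraries and bars exact 95% Poisson intervals, which cover counting error only. In endothelial cells the NdpKO points of Apcdd1 (157 and 134) and Nkd1 (26.3 and 30.0) lie far below the NdpWT points, and in mural cells those of Axin2 do while those of Nkd1 do not.

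The plot of levels by library shows these values with their counting error. Markers of other cell types in the endothelial class also differed between the genotypes: the 13 mural markers summed to 142.5 and 163 CPM in NdpWT and 54.2 and 79.3 in NdpKO (Rgs5 40.9 and 36.8 against 2.87 and 7.65), and the 13 fibroblast markers to 593 and 913 against 1546 and 1008. In mural cells the mural markers summed to 24840 CPM or more. Their part in the endothelial changes was not tested. A class sum moves both when the mix of subtypes changes and when cells of a subtype change, and the mix did differ. Capillary-like cells (led by markers such as Tfrc and Car4) made up 41.6% and 34.7% of endothelial cells in NdpWT and 4.67% and 8.50% in NdpKO, and an unnamed sub-cluster led by Piezo2 and Plvap made up 1.498% and 0.285% against 20.3% and 18.0%. Genes called between the genotypes in the class were left out of this sub-clustering, and so were the 10 genes. A further sub-cluster, 16.2% to 21.3% of the endothelial cells of each library, had a median UMI count well under that of its library (a ratio of 0.1778) and was not tested by itself, though its cells are in the class sums. Arterial-like cells (led by markers such as Sema3g, Eln and Fbln5) were tested apart from a pool of capillary-like cells, venous-like cells (Lrg1, Selp) and the Piezo2 cells. The mix of this pool differs between the genotypes too: capillary-like cells were 111 of its 132 and 365 of its 463 cells in NdpWT but 14 of 91 and 43 of 214 in NdpKO, where Piezo2 cells were 61 and 91. The part of this mix in the changes of the pool was not tested.

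In this non-arterial pool, 4 of the 9 genes tested fell, against 2.18% of all 10177 genes (2.79% rose, 4.97% in all). Apcdd1 had 682 and 636 CPM in NdpWT and 190 and 208 in NdpKO (-1.71 ± 0.15, adjusted p = 3.47e-05), and Nkd1 had 120 and 109 against 37.4 and 34.2 (-1.66 ± 0.18, adjusted p = 1.88e-04). Sp5 (42.0 and 38.1 against 11.5 and 21.4 CPM, -1.23 ± 0.27, adjusted p = 0.0184) and Tcf7 (82.3 and 78.0 against 43.1 and 47.0, -0.81 ± 0.18, adjusted p = 0.0180) also fell, but neither passed in DESeq2 (0.111 and 0.151) or without NdpKO replicate 1 (0.125 and 0.0850), nor Tcf7 without NdpKO replicate 2 (0.0830). Axin2 was closer between the genotypes here than in the class, at 45.4 and 29.9 against 30.5 and 23.7 CPM, with overlap (-0.43 ± 0.26, 95% interval -0.99 to 0.13). Lef1 was at 272 and 269 against 187 and 214 CPM (-0.42 ± 0.15, adjusted p = 0.16). In all, 6 of the 10 genes had both NdpKO libraries below both NdpWT libraries, against 23% of genes with at least 10 UMIs.

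Within the pool, capillary-like cells of the NdpKO libraries were too few to test (14 and 43 cells). Apcdd1 in them was at 747 and 739 CPM in NdpWT and 492 and 453 in NdpKO, so it was lower there too but stayed above its level in the NdpKO Piezo2 cells (160 and 204). Nkd1 in capillary-like cells was at 132, 110.1, 117 and 42.1 CPM, with the first NdpKO library at the wild-type level. Sp5 was at 41.4 and 36.8 against 4.87 and 12.02 CPM. The venous-like cells (17, 95, 16 and 80) had Apcdd1 at 130 and 270 against 112 and 53.5 CPM. Values over so few cells are given without a test.

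Arterial-like cells (65, 217, 106 and 139) had much lower levels of the endothelial targets in NdpWT, with Apcdd1 at 68.3 and 89.1 CPM and Nkd1 at 17.4 and 12.2. There edgeR and DESeq2 each called 0 of 9 members, 4 had an unadjusted p under 0.05 in edgeR (409 of all 10511 genes), and 0% of all genes were called. Apcdd1 was at 45.8 and 57.9 CPM in NdpKO (-0.63 ± 0.21), Axin2 at 22.8 and 15.01 against 6.60 and 9.21 (-1.22 ± 0.40), Sp5 at 14.1 and 31.9 against 12.8 and 12.3 (-0.96 ± 0.36) and Lef1 at 57.5 and 67.5 against 29.3 and 53.2 (-0.64 ± 0.27). Sp5 rests on NdpWT replicate 2, without which it was -0.18, and Lef1 was at -0.24 without NdpKO replicate 1 and -1.11 without NdpKO replicate 2. All 4 had lower values in both NdpKO libraries, and each adjusted p was 1.00. With the rest, 6 of the 10 genes did not overlap in this direction, against 16.1%. Between the non-arterial pool and arterial-like cells the change of Apcdd1 differed by -1.06 (95% interval -1.46 to -0.65, adjusted p = 0.00631), 1 of 9 members against 1.55% of all genes. That call is lost without NdpWT replicate 1 (-0.88, adjusted p = 0.34), without NdpWT replicate 2 (-1.36, adjusted p = 0.0788) and without the library term (adjusted p = 0.0762). The difference was 0.83 for Axin2 (0.02 to 1.64, adjusted p = 0.481), in the other direction.

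Cycling endothelial cells (19, 95, 28 and 52) had 0 of 8 members called by edgeR or DESeq2, with 5 at an unadjusted p under 0.05 in edgeR (484 of all 8641 genes) and 0.486% of all genes called. Nkd1 was at 128 and 116 CPM in NdpWT and 61.0 and 47.7 in NdpKO (-1.15 ± 0.26, adjusted p = 0.0538), and Sp5 at 43.9 and 41.6 against 11.4 and 17.6 (-1.58 ± 0.38, adjusted p = 0.0969). Both genes had clear gaps between the genotypes, and 7 of the 10 genes did not overlap with NdpKO lower, against 14.7%. Apcdd1, at 335 and 477 against 406 and 134 CPM, overlapped, and without NdpKO replicate 1 it was at -1.65 (adjusted p = 2.66e-06). Nkd1 passed without NdpWT replicate 1 (adjusted p = 0.0315) and without NdpKO replicate 1 (0.0142), Sp5 without NdpWT replicate 1 (0.0303) and without NdpKO replicate 2 (0.0110), and Tcf7 in the same 2 cases as Sp5 (0.0357 and 0.00307).

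The mural class, named for the pericytes and smooth muscle that wrap the vessels, had 0 of 8 members called by edgeR, with 4 at an unadjusted p under 0.05, all lower in NdpKO. Over all 10791 genes tested, 649 had an unadjusted p under 0.05 and 0.0371% were called, so few genes of any kind passed in this class. DESeq2 called 0 and gave an adjusted p only to Nkd1. The lowest p in edgeR was that of Axin2, which had 88.3 and 58.0 CPM in NdpWT and 32.7 and 30.9 in NdpKO (88, 136, 61 and 80 UMIs). The NdpKO libraries were close to each other and well below the lower NdpWT library, and the change was -1.12 ± 0.23 (95% interval -1.62 to -0.62, adjusted p = 0.223). It passed in 5 of 11 alternative analyses, with adjusted p from 1.66e-05 to 0.566. Leaving out NdpWT replicate 2 (-1.42, adjusted p = 0.00531), NdpKO replicate 1 (-1.17, adjusted p = 0.00971) or NdpKO replicate 2 (-1.04, adjusted p = 0.0236) brought it past the threshold, and leaving out NdpWT replicate 1 did not (-0.83, adjusted p = 0.343). In cells thinned to 2000 UMIs each, with shallower cells left out, an Axin2 UMI was seen in 16.1% and 13.7% of mural cells in NdpWT (87 and 262 cells) and 8.33% and 5.53% in NdpKO (96 and 199 cells). Unthinned shares were 48.0%, 28.1%, 32.0% and 25.8%. In erythroid cells, which should lack the gene, the thinned shares were 2.98%, 1.19%, 1.14% and 0.965%, below those of mural cells in every library. Erythroid markers made up 564400 to 627900 CPM of these cells, which leaves fewer of the 2000 UMIs for other genes. Their shares may therefore understate the background in mural cells.

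Lef1 was scarce in mural cells, at 7.02 and 17.5 CPM in NdpWT and 3.76 and 3.10 in NdpKO (7, 41, 7 and 8 UMIs). Its change was -1.94 ± 0.50 (95% interval -3.03 to -0.85, adjusted p = 0.390) and rests on NdpWT replicate 2, without which it was -0.98. Without NdpWT replicate 1 it was -2.32 (adjusted p = 0.0483). In NdpWT replicate 2 mural cells also had the highest summed level of 4 endothelial markers: Cldn5, Pecam1, Clec14a and Kdr together were at 13.04, 78.4, 10.7 and 20.1 CPM. That library was also highest in fibroblasts (18.2, 68.9, 25.5 and 23.9 CPM) and erythroid cells (10.8, 80.7, 11.3 and 31.3 CPM). The excess was therefore not particular to mural cells, and its part in the values of that library was not tested. Thinned shares of mural cells with a Lef1 UMI were 2.30%, 3.44%, 0% and 1.01%, and erythroid cells had 0% to 0.873%. When cells with any UMI of those 4 genes were left out, Lef1 was at -1.76 (adjusted p = 0.692) and Axin2 at -1.01 (adjusted p = 0.566). Tnfrsf19 (77.3 and 72.4 against 48.3 and 46.4 CPM, -0.62 ± 0.18, adjusted p = 0.507) and Nkd2 (27.1 and 17.5 against 15.03 and 8.90 CPM, -0.82 ± 0.36, adjusted p = 0.799) also had both NdpKO libraries below NdpWT. With Tcf7, that makes 5 of the 10 genes, against 20.3% of genes with at least 10 UMIs.

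The inhibitors that fell most in endothelium did not follow in the summed mural class. Values of Apcdd1 in pericyte-like cells alone are given below. Nkd1 had 78.3 and 97.2 CPM in NdpWT and 92.8 and 113 in NdpKO (0.25 ± 0.18, 95% interval -0.13 to 0.63), so it was measured well and overlapped. It was highest in smooth-muscle-like cells, which made up more of the class in NdpKO, as given below. The part of that shift in this value was not tested. Apcdd1 had 37.1 and 58.4 against 38.6 and 40.6 CPM (-0.29 ± 0.23, 95% interval -0.79 to 0.22). Sp5 (8, 5, 4 and 8 UMIs) and Notum (0, 0, 0 and 1 UMIs, where 0 allows up to 3.01, 1.28 and 1.61 CPM) were too low to test. The median change of the 8 tested genes was -0.62, against 2.85e-04 over all genes.

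Pericyte-like cells, led by Abcc9, Atp13a5 and Kcnj8 among their markers, were the mural cells with the most Axin2, at 230 and 115 CPM in NdpWT and 108 and 79.2 in NdpKO (33, 40, 20 and 19 UMIs in 18, 51, 13 and 26 cells). All 3 members that could be tested there missed the threshold (0 called by edgeR and by DESeq2, 2 at an unadjusted p under 0.05 against 185 of all 3893 genes, 0.0514% of all genes called): Axin2 at -0.75 ± 0.35 (adjusted p = 0.990; -0.30 without NdpWT replicate 1 and -1.26 without NdpWT replicate 2), Apcdd1 at -0.87 ± 0.42 (adjusted p = 0.990) and Tnfrsf19 at -0.43 ± 0.29. The 4 endothelial genes summed to 34.9, 74.8, 5.38 and 20.8 CPM in these cells, with Pecam1 at 0 UMIs in every library, and their part in the Axin2 values was not tested. Of the 10 genes, 5 had both NdpKO libraries of pericyte-like cells below NdpWT, against 19.1%. Axin2 in a sub-cluster led by Casq2 was at 71.4 and 54.0 against 24.3 and 45.4 CPM (-0.83 ± 0.34, adjusted p = 0.995; -0.45 without NdpKO replicate 1 and -1.34 without NdpKO replicate 2). There edgeR and DESeq2 called 0 of 4 members, edgeR had 1 at an unadjusted p under 0.05 (311 of all 6955 genes), and 0% of all genes were called. Smooth-muscle-like cells (led by Cnn1 and Pln) had the least Axin2 of these 3 sub-clusters, at 30.2 and 19.4 against 25.6 and 12.9 CPM, with overlap (-0.24 ± 0.57, 95% interval -1.42 to 0.93). There edgeR and DESeq2 called 0 of 5 members, with 0 at an unadjusted p under 0.05 in edgeR and 0% of all genes called. These cells were 11% and 14.7% of mural cells in NdpWT and 34.0% and 29.4% in NdpKO, and the part of this shift in the class values of Axin2 and Nkd1 was not tested. The class also held cells led by Ccl11, Ccl19 and Col1a1 (9%, 9.06%, 1.94% and 8.15%), with 8036 to 13410 CPM of fibroblast markers. Low-depth cells (a ratio of 0.1752) made up 12%, 20%, 9.71% and 10.4%, and cycling and haemoglobin-led cells were also present. None of these was tested by itself, and their part in the class sums was not tested. Nkd1 was highest in smooth-muscle-like cells, at 144, 166, 138 and 187 CPM, with a change of 0.04 ± 0.24. In the Casq2 sub-cluster its change was -0.21 ± 0.26.

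Fibroblasts had the largest UMI sums, 18023319 to 27099468 per library, and 0 of 10 members called by edgeR, with 5 at an unadjusted p under 0.05. Over all 15364 genes, 1486 had an unadjusted p under 0.05 and 0.013% were called. DESeq2 called Lef1 alone (-0.85, adjusted p = 0.00968). All 10 fitted changes were negative, with a median of -0.37 against 0.0032 over all genes, and 8 of 10 genes had both NdpKO libraries below NdpWT, against 19.3% of genes with at least 10 UMIs. Lef1 had 31.1 and 24.8 CPM in NdpWT and 15.5 and 15.7 in NdpKO (-0.84 ± 0.15, 95% interval -1.20 to -0.49, adjusted p = 0.152), with the NdpKO libraries close together and apart from NdpWT. Under a stricter cell filter it was at -0.51 (adjusted p = 0.674), and without NdpWT replicate 2 it passed (-1.02, adjusted p = 0.0248).

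None of the other fibroblast values passed either. Notum (1.77 and 1.62 against 0.627 and 1.25 CPM, 17 to 37 UMIs) was at -0.86 ± 0.42 (adjusted p = 0.571) and Nkd2 (16.9 and 22.6 against 8.71 and 15.4 CPM) at -0.71 ± 0.28 (adjusted p = 0.497). Without NdpKO replicate 1 they were -0.44 and -0.36, and without NdpKO replicate 2 they were -1.43 and -1.18. Axin2 had 113 and 85.5 CPM against 81.1 and 72.9 (-0.37 ± 0.16, adjusted p = 0.512), which did not overlap, with NdpWT replicate 1 highest, and without that library the change was -0.13, while without NdpWT replicate 2 it was -0.58. Sp5 had 49.9 and 38.8 against 32.8 and 33.5 CPM (-0.42 ± 0.15, adjusted p = 0.428), and its change was -0.20 without NdpWT replicate 1. Tcf7 (17.8 and 19.7 against 12.7 and 16.4 CPM) was at -0.37 ± 0.16 (adjusted p = 0.517; -0.19 without NdpKO replicate 1 and -0.56 without NdpKO replicate 2), and Znrf3 at -0.21 ± 0.20. Apcdd1 had 103 and 85.4 against 84.7 and 88.4 CPM (-0.13 ± 0.13, 95% interval -0.43 to 0.18). Nkd1 (73.7 and 59.9 against 54.0 and 58.3 CPM, -0.25 ± 0.14) and Tnfrsf19 (-0.11 ± 0.11) were also near 0. An Axin2 UMI was seen in 17.1%, 14.7%, 13.1% and 14.3% of thinned fibroblasts, where the genotypes were close, and in 66.1%, 49.6%, 58.6% and 48.3% unthinned.

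Axin2 varied among the fibroblast sub-clusters. Cells led by Col15a1, a collagen gene, had the most Axin2 of the tested sub-clusters, at 176 and 139 CPM in NdpWT and 154 and 143 in NdpKO, which overlapped (-0.11 ± 0.15, 95% interval -0.43 to 0.21). They were 42.8% and 34.0% of fibroblasts in NdpWT and 18.3% and 22.8% in NdpKO, while the other 4 tested sub-clusters had Axin2 between 38.0 and 77.8 CPM, and the part of this shift in the class value was not tested. In Col15a1 cells edgeR and DESeq2 called 0 of 9 members, 2 had an unadjusted p under 0.05 in edgeR (1251 of all 12754 genes), and 0.4% of all genes were called. Lef1 there was at 57.8 and 46.6 against 42.2 and 37.6 CPM (-0.41 ± 0.16, adjusted p = 0.419), a smaller step than in the class, and Apcdd1 at 162 and 133 against 167 and 168 CPM (0.16 ± 0.14). Only 3 of the 10 genes did not overlap with NdpKO lower, against 17.4%. In cells led by Fmod, Axin2 was at 72.6 and 40.0 against 58.2 and 51.6 CPM (-0.04 ± 0.26), with 0 of 9 members called by edgeR and DESeq2, 1 at an unadjusted p under 0.05 (Nkd2, -0.85, against 861 of all 12846 genes) and 0% of all genes called. The other 3 tested sub-clusters, led by Krtdap, Mgp and Moxd1, had Axin2 changes of 0.07, 0.13 and 0.08. In them 0 of 9, 9 and 8 members were called by edgeR and 0 by DESeq2, with 1, 1 and 0 at an unadjusted p under 0.05 in edgeR, against 0.0906%, 0.00932% and 0% of all genes called. Of all 12142, 10731 and 11241 genes, 974, 597 and 530 had such an unadjusted p. The 1 in Krtdap cells was Tcf7, lower in NdpKO (-0.56), and the 1 in Mgp cells was Tnfrsf19, higher in NdpKO (0.46). A sub-cluster of 14 to 73 cells per library, too few to test, had Axin2 at 108, 154, 101 and 158 CPM. Another, with median UMIs far below its libraries' (a ratio of 0.1558), was 4.07% and 12.4% of fibroblasts in NdpWT and 22.9% and 15.4% in NdpKO. It was not tested by itself, had Axin2 at 41.5, 36.8, 35.1 and 18.1 CPM (3 to 17 UMIs), and its cells are in the class sums.

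**Figure D3:**
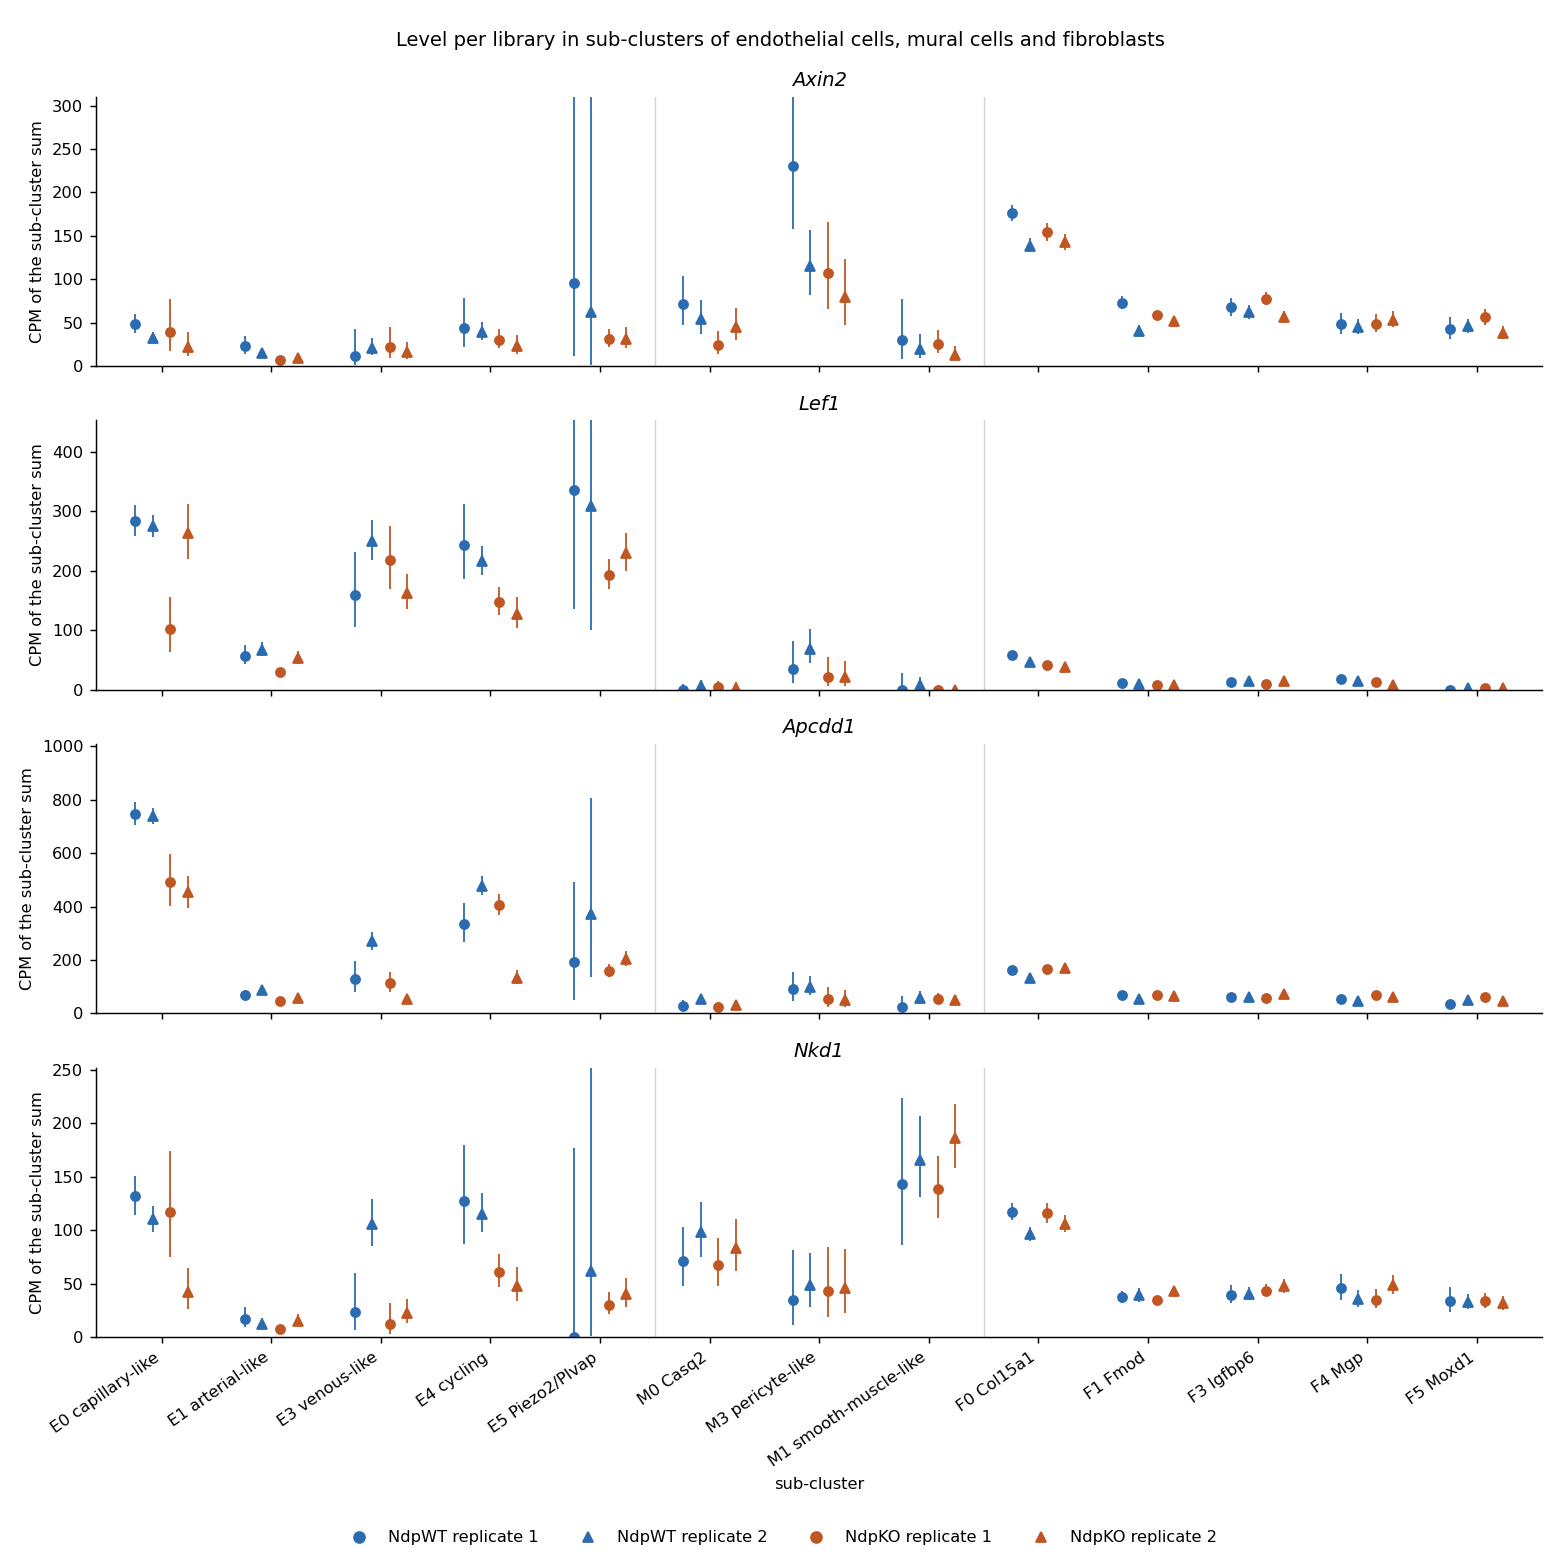
Axin2, Lef1, Apcdd1 and Nkd1 in each library of the endothelial (E), mural (M) and fibroblast (F) sub-clusters, in CPM, with exact 95% Poisson bars for counting error. E0 is capillary-like, E1 arterial-like, E3 venous-like, E4 cycling, E5 led by Piezo2, M0 led by Casq2, M3 pericyte-like, M1 smooth-muscle-like, F0 led by Col15a1 and F1 by Fmod. Some bars of E5 in NdpWT, which rest on 4 and 3 cells, run off the axis. Axin2 is highest in M3 and F0, Apcdd1 in E0.

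The plot by sub-cluster places Axin2 with pericyte-like and Col15a1 cells and Apcdd1 with capillary-like endothelium. The direct test of whether a change differed between classes separated Apcdd1 and Nkd1 from the rest. Between endothelial and mural cells 2 of the 8 members tested in both differed, against 1.66% of all 12373 genes: Nkd1 by -1.82 (95% interval -2.21 to -1.44, adjusted p = 2.36e-06) and Apcdd1 by -1.34 (-1.79 to -0.89, adjusted p = 0.00268). DESeq2 called the same pair, and the call of Apcdd1 is lost without the library term (adjusted p = 0.0838). The mix of sub-clusters differed between the genotypes in both classes, and its part in these differences was not tested. Axin2 did not differ detectably, at 0.26 (-0.22 to 0.73, adjusted p = 0.822), an interval that spans mural changes shallower and deeper than the endothelial one. Lef1 was at 1.28 (0.35 to 2.22, adjusted p = 0.228), Tnfrsf19 at -0.01 (-0.43 to 0.41) and Tcf7 at -0.24 (-0.81 to 0.32).

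Between endothelial cells and fibroblasts 2 of 10 members differed, against 4.15% of all 15196 genes. Apcdd1 differed by -1.50 (-1.78 to -1.22, adjusted p = 1.42e-04) and Nkd1 by -1.35 (-1.64 to -1.06, adjusted p = 1.58e-04). Sp5, at -0.91 (-1.44 to -0.39, adjusted p = 0.0703), and Axin2, at -0.48 (-0.79 to -0.18, adjusted p = 0.0873), missed the threshold. Lef1 was at 0.08 (-0.26 to 0.42, adjusted p = 0.884), an interval that spans changes smaller and larger than in endothelium. Against smooth-muscle-like cells Apcdd1 (-1.78, adjusted p = 1.46e-04) and Nkd1 (-1.68, adjusted p = 1.31e-07) differed from endothelium, 2 of the 5 members high enough to test in both, against 0.57% of all genes. Against pericyte-like cells only Axin2, Apcdd1 and Tnfrsf19 were high enough to test in both, and 0 of these 3 differed in edgeR or DESeq2 (0 at an unadjusted p under 0.05 in edgeR, 0.539% of all genes called), with Axin2 at -0.12 (-0.90 to 0.67) and Apcdd1 at -0.76 (-1.60 to 0.07). The 13 to 51 pericyte-like cells of a library give wide intervals.

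**Figure D4:**
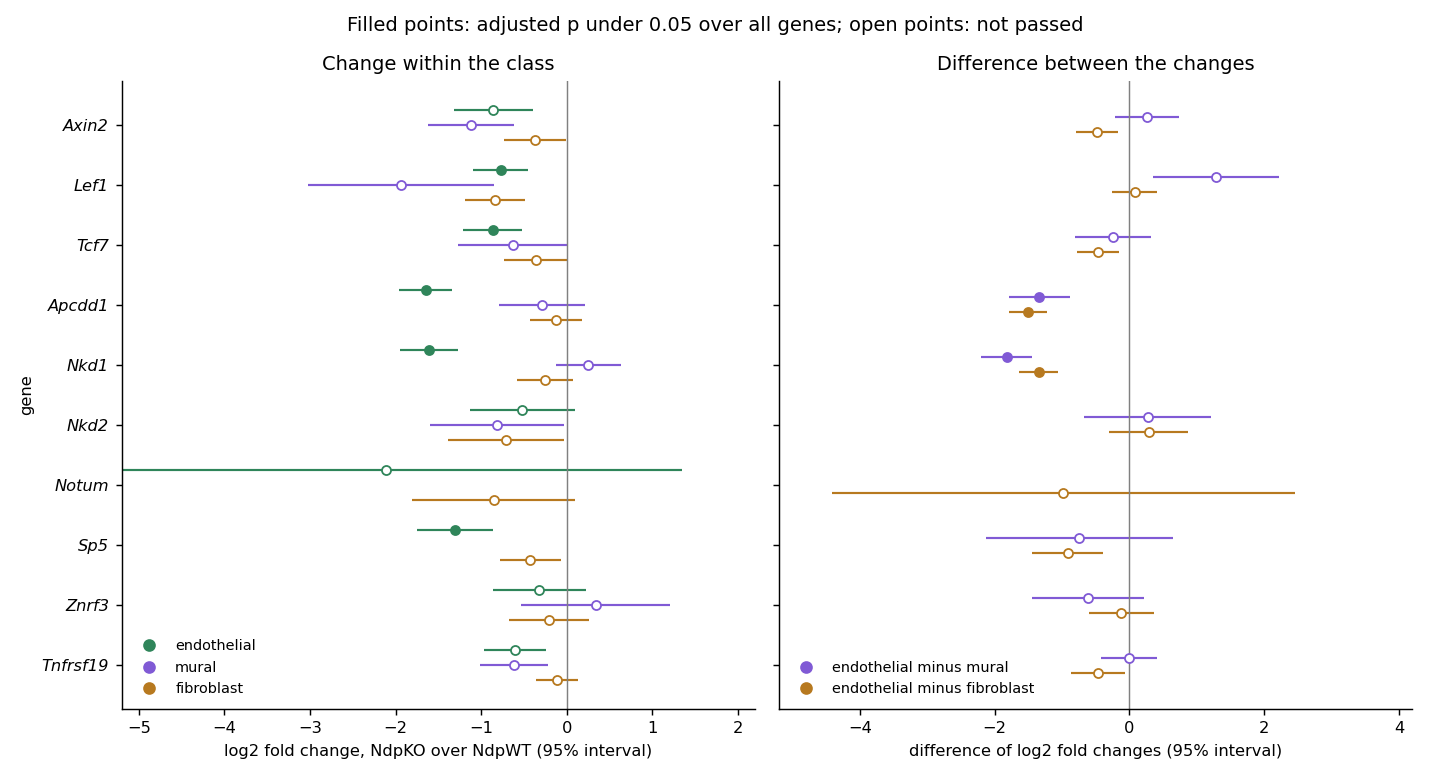
Left, the log2 change (NdpKO against NdpWT) of each gene in endothelial cells, mural cells and fibroblasts, with its 95% interval; filled points have an adjusted p under 0.05, and Sp5 and Notum were not tested in mural cells. Right, the difference between the endothelial change and that in mural cells or fibroblasts. The endothelial interval of Notum runs off the axis; Apcdd1 and Nkd1 carry the filled points on the right, and the mural point of Axin2 lies beside the endothelial one.

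The plot of changes sets the 3 classes side by side. In the other 8 tested classes edgeR and DESeq2 called 0 members, and edgeR called 0% of all genes in 6 of them, 0.00717% in cycling cells and 0.00795% in macrophages. At an unadjusted p under 0.05 edgeR had 2 members in the Pcp4 cluster, 1 each in cycling cells, the granule lineage and macrophages, and 0 in the rest, all lower in NdpKO. Over all genes it had 348 of 10789 in the Pcp4 cluster, 374 of 13956 in cycling cells, 279 of 14364 in the granule lineage and 544 of 12580 in macrophages. Sp5 in the Pcp4 cluster was at 14.8 and 10.4 CPM in NdpWT and 3.54 and 3.31 in NdpKO (-1.98 ± 0.43, adjusted p = 0.581), from 71, 11, 6 and 11 UMIs, and it passed without NdpWT replicate 2 (-2.14, adjusted p = 0.00244). Apcdd1 in macrophages was at 6.20 and 6.31 against 1.46 and 4.02 CPM (-1.32 ± 0.43, adjusted p = 0.962), and Lef1 in the granule lineage at 3.56 and 1.47 against 1.25 and 0.785 CPM (-1.40 ± 0.56, adjusted p = 0.999). Lef1 in erythroid cells, which should lack it, was read at 2.44, 3.01, 0.556 and 1.70 CPM, the range seen in the granule lineage, and the part of free RNA in these low values was not tested. Nkd1, which neurons express, was at 153 and 103 against 112 and 131 CPM in the granule lineage, with overlap.

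The same test set the endothelial change against each of these 8 classes. Nkd1 differed from 6 of them: the Pcp4 cluster (1 of the 5 members high enough to test in both, 0.631% of all genes), a cluster led by Nppc, Ecrg4 and Slc47a1 (3 of 8, with Apcdd1 and Axin2, 3.41%), cycling cells (2 of 9, with Apcdd1, 0.55%), the granule lineage (1 of 9, 0.356%), macrophages (1 of 9, 0.836%) and other neurons (1 of 4, 0.149%). The Nppc cluster had 10610 to 11540 CPM of the 13 fibroblast markers, against 19370 to 23610 in the fibroblast class. Its Axin2 was at 13.6 and 9.97 CPM in NdpWT, with a change of -0.03 ± 0.22 (95% interval -0.51 to 0.45). In erythroid cells edgeR called 0 of 7 (2 at an unadjusted p under 0.05 against 691 of all 13213 genes, 0.0227% of all genes called) and DESeq2 called Apcdd1. In monocytes and dendritic cells only Nkd1 was high enough to test, and its difference of -1.67 did not pass in edgeR (adjusted p = 0.245, 0.401% of all genes called) or DESeq2.

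Other genes of the pathway were taken as 2 lists. Of 39 receptors and signal transducers 0 were called by edgeR or DESeq2 in endothelial cells (36 tested, 11 at an unadjusted p under 0.05 in edgeR, 8 of them higher), mural cells (34 tested, 2 at an unadjusted p under 0.05) or fibroblasts (39 tested, 3 at an unadjusted p under 0.05). Over all genes, 1634 of 12528, 649 of 10791 and 1486 of 15364 had such an unadjusted p in the same classes. Of the Norrin receptor complex in endothelial cells, Fzd4 was at 118 and 132 CPM in NdpWT and 158 and 165 in NdpKO (0.35 ± 0.13, adjusted p = 0.229) and Lrp5 at 20.3 and 14.4 against 37.3 and 22.9 (0.83 ± 0.27, adjusted p = 0.192), both without overlap. Lrp6 (87.9 and 82.5 against 80.7 and 72.0 CPM, -0.17, adjusted p = 0.704) was close, and Tspan12 (54.9 and 39.9 against 50.8 and 54.7 CPM, 0.16, adjusted p = 0.803) overlapped. Mural cells held Fzd4 at 79.3, 96.7, 120 and 94.8 CPM and Tspan12 at 63.2, 56.2, 70.3 and 63.1, whereas fibroblasts had 5.22 to 7.94 CPM of Fzd4 and 2.83 to 5.53 of Tspan12.

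Among the further Wnt target genes reported here, Foxq1 and Tbx3 fell in endothelial cells and 0 rose in edgeR. There 1.44% of all genes were called lower and 1.1% higher. The list as a whole did not lean lower: 8 of its 22 tested genes had a negative change. Its median change was 0.24 against 0.0033 over all genes. The forkhead factor Foxq1 had 397 and 311 against 181 and 227 CPM (-0.81 ± 0.16, adjusted p = 0.0261), and it did not pass without NdpWT replicate 1 (-0.61, adjusted p = 0.108). The T-box factor Tbx3 had 59.7 and 55.1 against 30.7 and 39.7 CPM (-0.72 ± 0.17, adjusted p = 0.0488), and it did not pass in DESeq2 (adjusted p = 0.124) or without NdpWT replicate 1, NdpWT replicate 2 or NdpKO replicate 1 (0.109 to 0.196). Both genes lay apart between the genotypes. DESeq2 also called Foxq1 and, in the other direction, Ccnd2 (0.56, adjusted p = 0.0404), a cyclin of the cell cycle. In mural cells 0 of 20 were called by edgeR or DESeq2 (4 at an unadjusted p under 0.05 in edgeR, 2 lower and 2 higher), and in fibroblasts 0 of 25 by edgeR (3 at an unadjusted p under 0.05), where DESeq2 called Dact2 (1.16, adjusted p = 0.0157).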

How the data were processed

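Subdural meninges of 2 NdpWT;SmoA1+/- and 2 NdpKO;SmoA1+/- libraries were measured by droplet single-cell RNA-seq. The deposited matrices hold raw UMI counts per gene and barcode, made with Cell Ranger 6.1.2 on mm10, per the submitters' processing notes. From these counts, barcodes were kept from 500 genes and 1000 UMIs upwards when mitochondrial UMIs did not pass 10%, and called doublets (1.70% to 2.59%) were removed, which is below the share droplet loading predicts (10.3% to 15.3%), so doublets remain. Cells were clustered with scanpy 1.11.5 (2000 variable genes, 30 components, 20 neighbours, leidenalg 0.10.2 at resolution 1) without the 10 genes, and named by at least 3 markers among the 50 leading genes. Sub-clustering (resolution 0.5) also left out genes called between the genotypes in the class. UMIs were summed per library and class and tested with edgeR 4.0.16 (quasi-likelihood, TMM, filterByExpr, R 4.3.3), with Benjamini-Hochberg adjustment over all genes tested in the class and a threshold of 0.05. SE is the fitted change divided by the square root of F. Differences between classes are the interaction term in a fit with library as a term. CPM are UMIs scaled to the summed UMIs of the class. Poisson intervals of CPM and floors (3 counts) cover counting error only, at 95%. The 95% intervals of changes and of their differences come from the fit and include the spread between libraries.

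The 10 genes, the gene lists and the markers were chosen with earlier results of these data known. The rule for named genes was the 10 genes in every class tested (in the classes beyond endothelial, mural and fibroblast cells only some are given, chosen after their values were seen), list genes past the threshold (1 result is not reported here), 4 Norrin receptor genes, and the 5 genes most like Axin2 and Apcdd1. A pool of the non-arterial endothelial sub-clusters, sub-clusters with 10 to 20 cells in a library, and a filter on 4 endothelial genes were added after seeing the data. Alternatives were DESeq2 1.42.0, plain totals, no low-count filter, a replicate block, each replicate left out, other cell filters and resolution 2. The fits were tested on simulated counts. Of 32285 features, 32158 matched the annotation by identifier. Erythroid markers made up 999 to 28450 CPM of mural cells and 9241 to 22760 of endothelial cells, and granule-lineage markers 343 to 572 and 171 to 317.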

Additional observations from a re-analysis of the deposited data

Results flagged for a closer look

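A test of the difference itself separated the endothelial change of several genes from that in other cells. Differences are the endothelial log2 change minus the change in the other cells, with adjusted p from edgeR over all genes tested. For Nkd1 the difference was -1.82 against mural cells (adjusted p = 2.36e-06), -1.35 against fibroblasts (1.58e-04), -1.68 against smooth-muscle-like cells (1.31e-07), -1.47 against the Pcp4 cluster (3.97e-06), -1.64 against cycling cells (0.00209), -1.56 against the granule lineage (0.00813), -1.39 against macrophages (0.0378) and -2.29 against other neurons (0.0390). The call against macrophages is lost without any 1 of the 4 libraries (adjusted p 0.0858 to 0.281), and that against other neurons without either NdpWT library (adjusted p = 1 in both). For Apcdd1 it was -1.34 against mural cells (0.00268), -1.50 against fibroblasts (1.42e-04), -1.78 against smooth-muscle-like cells (1.46e-04) and -1.45 against cycling cells (0.00209). Within the endothelium Apcdd1 differed by -1.06 between the non-arterial pool and arterial-like cells (0.00631), which is lost without either NdpWT library (0.34 and 0.0788).

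An unnamed cluster led by Nppc, Ecrg4 and Slc47a1 differed from endothelium in 3 genes: Nkd1 by -1.675 (adjusted p = 2.6e-04), Apcdd1 by -1.18 (0.0127) and Axin2 by -0.86 (0.0409). The difference in Axin2 passed in 2 of 12 alternatives and in none that left out a library (adjusted p 0.0536 to 0.328), and that in Apcdd1 did not pass without NdpWT replicate 1 (-0.78, adjusted p = 0.19). These comparisons share the endothelial libraries, so their differences are not independent of each other.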

How the results depend on the processing

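Of 18 called values of single genes, 173 of 203 alternative values stayed on the same side of the threshold in the same direction, 30 no longer passed and 0 reversed. The 59 other values gave 57 passes and 33 reversals, listed below. In the numbers of members called, a replicate block gave 8 in endothelial cells, 2 in mural cells, 2 in fibroblasts, 3 in the other classes, 1 in sub-clusters and 1 in cycling endothelial, pericyte-like and smooth-muscle-like cells. In place of the library term the block gave 5 differences between endothelial cells and the other classes (9 in the text). The labels do not tie replicate numbers to litters, and same-numbered libraries had correlated deviations of 0.013 to 0.278 over 11 classes with only 2 pairs, so the number was not taken as pairing. DESeq2 gave 1 in fibroblasts and 2 in non-arterial cells. Without the low-count filter there were 2 in mural cells, 1 in fibroblasts, 3 in the other classes, 3 in the small sub-clusters, 6 differences from fibroblasts, 17 from the other classes and 2 between non-arterial and arterial cells. Without the library term there were 1 difference from mural cells, 4 from the other classes and 0 between non-arterial and arterial cells. A stricter cell filter gave 5 differences from fibroblasts, the filter on 4 endothelial genes 4, and resolution 2 gave 5 from the other classes, with fewer classes to compare. Leaving out cells with UMIs of another type gave 2 in the small sub-clusters and 2 between non-arterial and arterial cells.

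With 1 replicate left out, mural cells had 1 call each time (Lef1 without NdpWT replicate 1, Axin2 otherwise), fibroblasts 0 to 1, the other classes 0 to 4, non-arterial cells 2 to 4, the small sub-clusters 0 to 3, differences from fibroblasts 2 to 4, and non-arterial against arterial cells 0 to 2. The remaining sample of a group is then assumed to vary like the others. The background moved as much: genes called in mural cells ranged from 0 to 207 (4 in the text), in fibroblasts from 2 to 525 (2) and in endothelial cells from 209 to 1013 (319).

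No reversal was of a called value. The filter on UMIs of another type left out cells outside the endothelial class with 2 or more UMIs of the endothelial markers. In the endothelial class it left out cells with 2 or more UMIs of the mural markers. It kept 32, 95, 15 and 63 mural cells, with median UMIs of 2222.5, 2507, 2130 and 5718. The fibroblasts it kept had medians of 12396, 9585, 1647 and 6690, so these values rest on shallower cells, unequal between libraries. Without cells with UMIs of another type, Apcdd1 was 1.079 in mural cells and 0.060 in fibroblasts, Axin2 0.060 in Col15a1 fibroblasts, and the endothelial difference from mural cells 0.361 for Tcf7, 0.216 for Sp5 and 0.196 for Tnfrsf19, and that from fibroblasts -0.033 for Lef1 and -0.144 for Nkd2. The stricter filter gave 0.0082 for Apcdd1 in fibroblasts and differences from fibroblasts of -0.309 for Lef1 and -0.177 for Nkd2, and the filter on 4 endothelial genes -0.029 for Lef1. The difference of Tnfrsf19 from mural cells was 0.034 in DESeq2, 0.038 with plain totals, 0.016 without the library term and 0.011 with the block. With 1 replicate left out, Apcdd1 ran from -0.53 to 0.15 in mural cells and from -0.28 to 0.041 in fibroblasts, Znrf3 from -0.11 to 0.75 and from -0.46 to 0.069, Axin2 in Col15a1 fibroblasts from -0.29 to 0.079 and Tspan12 in endothelial cells from -0.089 to 0.40. The difference from mural cells ran from -0.44 to 0.072 for Tcf7, -0.24 to 1.01 for Nkd2, -1.68 to 0.35 for Sp5 and -0.21 to 0.33 for Tnfrsf19, and that from fibroblasts from -0.13 to 0.24 for Lef1, -0.028 to 0.60 for Nkd2 and -2.98 to 0.37 for Notum.

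NdpWT levels moved as follows: Lef1 in fibroblasts from 27.95 to 33.76 CPM with the stricter filter and 34.25 without cells with UMIs of another type, and with the latter Apcdd1 to 29.2 in mural cells and 114.2 in fibroblasts, and Nkd1 to 107.4 and 85.57. Thinned to 4000 UMIs, Axin2 was seen in 11.29% of endothelial, 23.55% of mural and 30.99% of fibroblast cells. On simulated counts with the class's trended spread, 2-fold changes were recovered at 73.7% in endothelial cells, 47.9% in mural cells and 66% in fibroblasts, with 5.26%, 3.76% and 1.92% of calls false. With each gene's own spread, 17.3%, 14.4% and 11.6% were false, so calls near the threshold are less firm than their adjusted p. At the trended spread the simulations gave 133 calls in mural cells and 156 in fibroblasts, against 4 and 2 in the data. More calls make the adjustment less strict. The recovered shares may therefore be higher than the tests of these classes reach in the data. The depth of mural cells, 996559 to 2584551 UMIs, limits what a missed threshold can say there. The causes of these shifts were not tested.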
